A study of Mus musculus with 14 samples.

Results

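Alveolar type 1 (AT1) cells and alveolar type 2 (AT2) cells, both from mice mutant for Nkx2-1, were compared to ask which differences between the 2 alveolar cell types are left when this transcription factor is reduced. The comparison used the 3 mutant AT1 libraries and the 3 mutant AT2 libraries. Its members are the genes found under 1 unique name in the tables of both cell types, without mitochondrial and small RNA loci, that reached 1 FPKM (fragments per kilobase of transcript and per library size) in 3 or more of these 6 libraries. Of 18039 genes joined by name, 9743 (54.0%) met this rule.

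Mutant AT1 cells came from postnatal day 5 (P5) mouse lung of a cross that the labels name by Nkx2-1 and Aqp5, and mutant AT2 cells from P8, P8 and P9 lung of a cross named by Nkx2-1 and Sftpc. Control AT1 cells (P5, Nkx2-1 and Aqp5 cross) and control AT2 cells (P8, P8 and P9, Nkx2-1 and Sftpc cross), 3 libraries each, gave the same comparison where Nkx2-1 is at its usual level. One mutant and 1 control whole lung at P14, of the Aqp5 cross, complete the 14 libraries of the series and are used only for reference. AT1 cells were purified by flow sorting, per the series' design text. The alleles, the deleted part of Nkx2-1, what drives the deletion beyond the gene names of the crosses, the genotype of the controls and the way of isolating AT2 cells were not given in the sources used here. Cell type, age, cross and data table change together, so their parts in any AT1 minus AT2 difference cannot be told apart. In bulk RNA, fewer cells of a type and less RNA per cell also cannot be told apart. The labels do not say that replicates came from separate animals, and the p-values then measure only the spread between these libraries.

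AT1 cells are the thin, spread cells across which gas is exchanged, and AT2 cells are the compact cells that make, store and secrete surfactant and can give rise to AT1 cells. NKX2-1 is the homeobox factor that marks lung epithelium from its first specification, binds many genes in both alveolar cell types and is needed for surfactant genes. In mouse lung, loss of this factor is known to let epithelial cells take on genes of the stomach and gut.

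Nkx2-1 (chromosome 12: 56531958 to 56536908, minus strand, GRCm38) measured 22.8, 55.8 and 68.2 FPKM in mutant AT1 libraries A to C, and 74.4, 59.0 and 73.4 in mutant AT2 libraries A to C. It measured 262, 281 and 239.8 FPKM in AT1 controls and 247, 289 and 353 in AT2 controls. Every mutant library was below every control library, the mutant groups overlapped, and their difference did not pass the test (log2 difference -0.53 ± 0.37, SE, n = 3 each; limma adjusted p = 0.277). Mutant AT1 library A had the lowest Nkx2-1 and stands apart from libraries B and C in several results below. Summed FPKM over the joined genes ranged from 336204.6 to 552680.3 in the 12 cell libraries, and 9140 to 9837 joined genes reached 1 FPKM in a library. Depth in reads is unknown, since FPKM values hold no counts. By Xist, the transcript that coats the inactive X chromosome, and the Y-linked Ddx3y, 1 of the 3 libraries in each mutant group had the male pattern. Xist and all measured Y-linked genes reached 1 FPKM together in control AT2 libraries A and C, and in no mutant library.

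**Figure D1:**
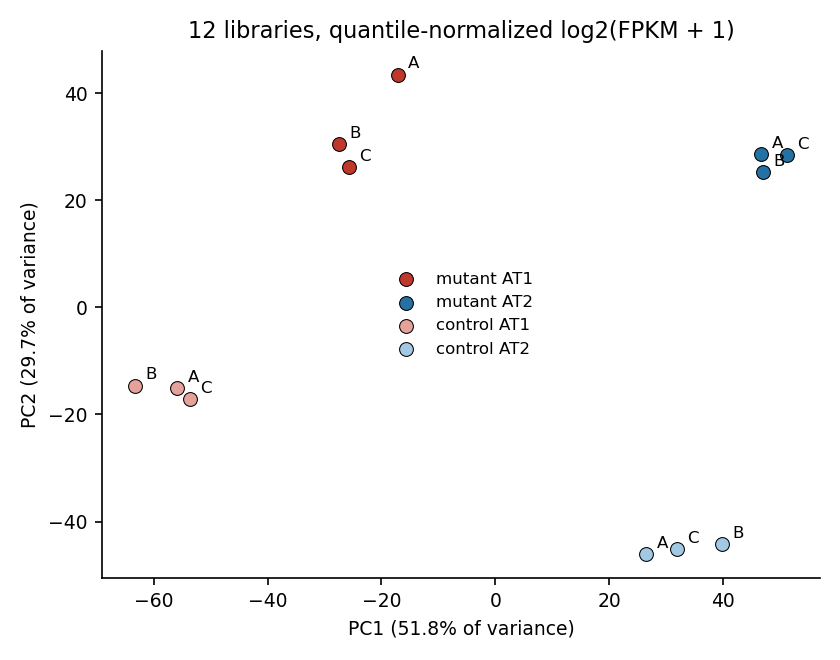
First and second principal component (arbitrary units) of quantile-normalized log2(FPKM + 1) in 12 libraries, 1 point per library, coloured by group. The first component (51.8% of the variance) separates AT1 from AT2 libraries and the second (29.7%) separates mutant from control libraries, with mutant AT1 library A farthest along it.

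The plot of principal components shows that the 2 mutant groups did not merge: mutant AT1 libraries lay at -17.1, -27.4 and -25.7 on the first component and mutant AT2 libraries at 46.7, 47.0 and 51.3. Pearson correlations between a mutant AT1 and a mutant AT2 library ran from 0.896 to 0.915 across genes, against 0.818 to 0.885 between a control AT1 and a control AT2 library. The lowest mutant value thus lay above the highest control value. These correlations are across genes of libraries from different tables and are given as a description.

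Mutant AT1 and mutant AT2 cells differed at 4365 of the 9743 genes. Of these, 1943 were higher in mutant AT1 cells (19.9% of the genes tested) and 2422 were lower (24.9%), by limma with Benjamini-Hochberg adjustment over all genes at a threshold of 0.05. Differences of 4-fold or more were fewer, with 215 genes higher (2.21%) and 78 lower (0.801%). The control comparison called 2317 of 9883 genes higher in AT1 cells (23.4%) and 2546 lower (25.8%), with 296 (3.0%) and 247 (2.5%) at 4-fold or more. The SD of the log2 difference over all genes was 0.78 in mutants and 0.96 in controls, and the medians were -0.06 and -0.03. Without mutant AT2 library C, the mutant comparison called 2906 genes, 1562 of them lower. Scaling to equal totals instead of equal distributions gave 4520 higher and 1075 lower genes in controls, moving the control median from -0.03 to 0.43, but left 50.6% of the mutant calls on the higher side, against 44.5% in the main fit.

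Most genes that set the control cell types apart, and were measured in the mutants, were still called different there. Of the 296 genes at least 4-fold higher in control AT1 cells, 292 were measured in mutants, and 279 of these (95.5%) were called higher in mutant AT1 cells, where 19.9% of all genes were. Their median log2 difference was 1.88 in mutants and 2.44 in controls. In the P14 control whole lung, 105 of the 292 (36.0%) measured at or above their control AT1 mean, against 58.4% of all genes tested in both comparisons. These 105 had medians of 2.26 in mutants and 2.41 in controls, and 103 were called higher. The other 187 had medians of 1.64 and 2.45, and 176 were called higher. The part of other lung cells in these genes was not tested. Of the 247 genes at least 4-fold higher in control AT2 cells, 227 were measured in mutants, and 174 (76.7%) were called lower in mutant AT1 cells, where 24.9% of all genes were. Their median difference was -1.26 in mutants and -2.50 in controls. Still at 4-fold or more were 134 of the AT1-higher genes (45.9%) and 57 of the AT2-higher genes (25.1%). The control libraries chose these genes by size, which favours larger control medians, so the smaller mutant medians and these counts are a description. With equal totals the control comparison chose other numbers of genes, and 511 AT1-higher and 90 AT2-higher genes were called the same way in mutants. Mutants and controls share no library but share the 2 tables, so an offset between the tables at a gene appears in both.

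Whether the AT1 minus AT2 difference itself changed was tested as an interaction over the 12 libraries, mutant difference minus control difference. It was positive for 606 of 10290 genes (5.89%) and negative for 421 (4.09%), and an offset of a gene that is the same in both arms of a table cancels in it. With the letters of mutant and control AT1 libraries as pairs, in a fit added after seeing the data, 977 were positive and 841 negative. Equal totals moved this split to 307 positive and 2821 negative genes, with the median over all genes at -0.42 against -0.04, so directions of single interactions below are relative to that choice. The count of 1027 fell to 493, 599 and 535 without mutant AT2 library A, B or C, and to 512 without control AT2 library B. Without control AT2 library C, 270 genes were negative. Among the measured control-defined genes, the difference was smaller in mutants by this test for 55 of 292 AT1-higher genes and 117 of 227 AT2-higher genes, or 88 and 153 with AT1 letters as pairs. It was larger for 2 and 3, or 4 and 3. The interaction uses the control libraries that chose these genes, so the counts are a description.

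**Figure D2:**
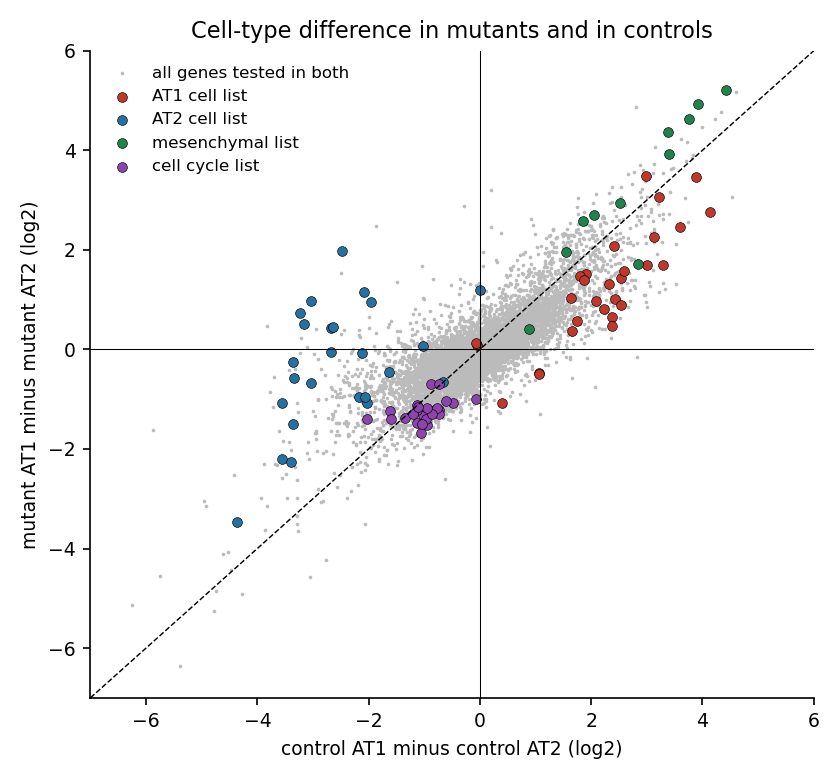
Log2 difference AT1 minus AT2 in mutants (vertical axis) against the same difference in controls (horizontal axis), 1 point per gene tested in both; members of 4 gene lists are coloured and lines mark 0 and equality. Most AT2 genes sit left of 0 in controls and spread around 0 in mutants, and most AT1 genes sit above 0 in mutants, where 21 of 29 were called higher and 2 lower.

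The plot of mutant against control differences covers 9467 genes. Of these, 2917 were called the same way in both comparisons, 1252 in mutants only, 1672 in controls only and 41 in opposite ways. The 2 differences correlated with r = 0.81 across genes, a description of genes that share 2 tables.

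Genes of AT1 cells stayed higher in mutant AT1 cells at a lower level. Of 29 measured AT1 genes, 21 were called higher in mutant AT1 than in mutant AT2 cells and 2 lower, with a median log2 difference of 1.32, against -0.06 over all genes. In controls 26 of 29 were higher and none lower, with a median of 2.38. The interaction was negative for 6 of 29 and positive for 0. The summed level of the list was 4958 to 7856 FPKM in mutant AT1 libraries and 2410 to 3000 in mutant AT2 libraries, against 15631 to 20740 in control AT1 and 4767 to 7026 in control AT2 libraries. Leaving out each mutant library in turn gave 19 to 23 genes higher. Over all genes, 19.9% were called higher and 24.9% lower in mutants, and 23.4% and 25.8% in controls. The interaction was positive for 5.89% and negative for 4.09% of all genes. These shares stand beside the counts of every list below. Where the text gives no gene of a list as called in a direction in mutants or in controls, none was past an unadjusted p of 0.05 there either by limma, the only tool run, and the same held for positive interactions of AT1 genes and negative ones of AT2 genes.

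Ager, whose product RAGE is a membrane receptor dense on AT1 cells, measured 547, 1484 and 1156 FPKM in mutant AT1 libraries A to C and 325, 485 and 325 in mutant AT2 libraries. The groups did not overlap, with library A lowest among mutant AT1 libraries (log2 difference 1.51 ± 0.42, limma adjusted p = 0.0207). Scnn1g, the gamma chain of the sodium channel ENaC, which clears alveolar fluid, measured 28.2, 107 and 75.7 FPKM in mutant AT1 libraries and 5.99, 5.44 and 3.0 in mutant AT2 libraries. All mutant AT1 libraries lay well above all mutant AT2 libraries (3.46 ± 0.46, adjusted p = 0.000765), and the beta subunit gene Scnn1b differed by 3.06. The alpha subunit gene Scnn1a did not pass the test in mutants (0.48, adjusted p = 0.164), with 70.0, 83.4 and 60.7 FPKM in mutant AT1 and 55.7, 75.2 and 35.3 in mutant AT2 libraries.

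Igfbp2, a secreted binding protein for insulin-like growth factors, had one of the widest gaps of the list. It measured 585, 1624 and 981 FPKM in mutant AT1 libraries and 97.8, 70.7 and 123 in mutant AT2 libraries, with no overlap (3.48 ± 0.43, adjusted p = 0.000562). Hopx, a homeodomain cofactor, measured 114, 191 and 178 FPKM in mutant AT1 and 66.7, 69.2 and 45.0 in mutant AT2 libraries (1.43, adjusted p = 0.00266). Cav1, which builds caveolae, differed by 2.08, and Spock2, a proteoglycan gene, by 2.77.

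A few AT1 genes no longer marked the AT1 side. Aqp5, the water channel gene whose name is in the label of the AT1 cross, measured 146, 212 and 129 FPKM in mutant AT1 libraries and 284, 233 and 159 in mutant AT2 libraries. These groups overlapped (-0.48, adjusted p = 0.158), while control AT1 libraries had 462, 459 and 430.2 FPKM and control AT2 libraries 353, 241 and 217 (1.07). Its interaction was -1.53 (adjusted p = 0.0211), and a part of the cross's alleles in the Aqp5 signal was not tested. Tspan15, a tetraspanin gene, turned round: it was lower in mutant AT1 cells (-0.49, adjusted p = 0.0178) and higher in control AT1 cells (1.06, adjusted p = 0.0013). Cyp2b10, a cytochrome P450 gene, was also lower in mutant AT1 cells (-1.07). It was not called between the controls, so a loss of an AT1 excess was not shown for it. Rtkn2, known as an AT1 cell marker, held 4.10 FPKM in mutant AT1 library A, below all mutant AT2 libraries (12.1, 9.36 and 5.62), and 28.0 and 21.4 in libraries B and C, and did not pass the test. Pdpn, the podoplanin gene, did not pass either (0.37, adjusted p = 0.279).

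**Figure D3:**
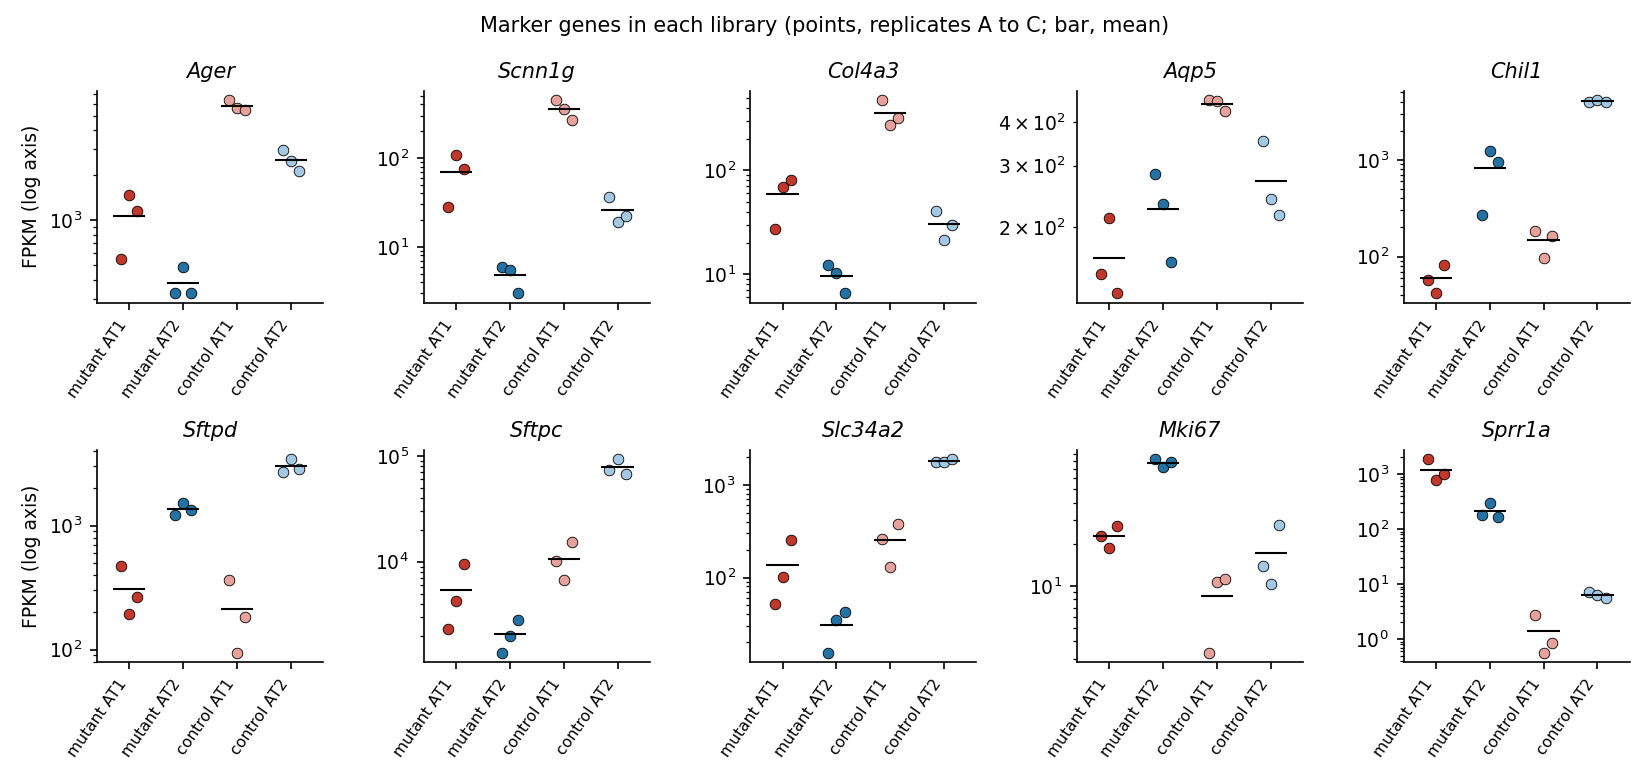
FPKM (log axes) of 10 genes in 12 libraries, 1 point per library, in the order mutant AT1, mutant AT2, control AT1, control AT2; bars mark group means. Scnn1g, Ager and Col4a3 are higher in mutant AT1 than in mutant AT2 libraries, Chil1, Sftpd and Mki67 are lower, and Slc34a2 has opposite orders in mutants and controls.

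AT2 genes largely lost their AT2 excess, as a group. Of 25 measured AT2 genes, 7 were lower in mutant AT1 than in mutant AT2 cells and 2 were higher, a share close to the 24.9% and below the 19.9% over all genes, with a median of -0.26. In controls 23 of 25 were lower in AT1 cells and none higher, with a median of -2.67. The interaction was positive for 17 of 25 and negative for none, and for 11 to 18 when each library was left out. The list summed to 4594 to 13048 FPKM in mutant AT1 and 5228 to 8301 in mutant AT2 libraries, against 9168 to 20319 in control AT1 and 100836 to 130562 in control AT2 libraries. Without mutant AT1 library A, 6 genes were higher and 7 lower. Without mutant AT1 library C, which had the most Sftpc, Slc34a2 and Lamp3, none was higher and 11 were lower. None was higher in the fit without a filter on low values either.

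The 7 AT2 genes still higher on the AT2 side include secreted proteins. Chil1 (chromosome 1: 134182176 to 134190181, plus strand), a chitinase-like protein of the airspace, measured 57.7, 41.8 and 81.0 FPKM in mutant AT1 libraries and 267, 1229 and 957 in mutant AT2 libraries. The groups were well apart (-3.47 ± 0.50, limma adjusted p = 0.00114). Sftpd, the collectin surfactant protein D, measured 469.9, 193 and 267 FPKM in mutant AT1 libraries and 1216, 1512 and 1346 in mutant AT2 libraries, again with no overlap (-2.20 ± 0.26, adjusted p = 0.00043). The other 5 were Egfl6 (-2.25), a secreted protein with EGF repeats, Muc1 (-1.49), a membrane mucin, Fabp5 (-1.09), a fatty acid carrier, Npc2 (-0.95), a cholesterol carrier of lysosomes, and Ctsh (-0.66), a protease that processes surfactant protein B.

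Slc34a2, the sodium phosphate transporter of the AT2 apical membrane, ran against its control order. It measured 52.2, 102 and 251 FPKM in mutant AT1 libraries and 15.5, 34.5 and 42.2 in mutant AT2 libraries, against 262, 129 and 375 in control AT1 and 1746, 1754 and 1883 in control AT2 libraries. Mutant AT1 libraries all lay above mutant AT2 libraries, and control AT1 libraries all below control AT2 libraries. The log2 difference was 1.98 ± 0.56 in mutants (adjusted p = 0.023) and -2.48 in controls, with an interaction of 4.48 (adjusted p = 0.00531). S100g, the vitamin D-dependent calcium-binding protein calbindin D9k, did the same with a smaller mutant difference (0.74, limma adjusted p = 0.0438, interaction 3.90). From mutant AT1 library A to C, the AT2 genes Sftpc, Lamp3, Etv5 and Rbpjl rose in the same order as Slc34a2. Chil1, Sftpd and S100g did not, and the other AT2 genes were not counted for this order. Nkx2-1 itself, given above, also rose from library A to C. The parts of AT2 cell RNA and of remaining Nkx2-1 in the AT1 libraries were not tested.

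Sftpc, which encodes surfactant protein C and gives its name to the AT2 cross, measured 2311, 4288 and 9584 FPKM in mutant AT1 libraries and 1386, 1999.6 and 2790.5 in mutant AT2 libraries. These groups overlapped and the difference did not pass the test (1.20 ± 0.48, adjusted p = 0.0734). Without mutant AT1 library A it did (1.70, adjusted p = 0.00653). Control AT1 libraries held 10055, 6728 and 15305 FPKM and control AT2 libraries 73126, 92418 and 67283. Sftpc was the highest joined gene in all 6 control libraries, and quantile normalization sets the top genes of the libraries equal, so its control difference of 0.00 is made by that step. The interaction was 1.57 (adjusted p = 0.208) with it and 4.13 (adjusted p = 0.00524) with no rescaling across the tables.

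The other surfactant and lamellar body genes did not differ between the mutants beyond their spread. Sftpb (0.43), Sftpa1 (-0.26), Abca3 (-0.08), the lipid pump of lamellar bodies, and Lamp3 (0.51), a lamellar body membrane protein, all missed the threshold, with adjusted p of 0.502, 0.711, 0.803 and 0.475. In controls they differed by -2.67, -3.36, -2.12 and -3.16. All 4 had a positive interaction that passed the test. Lamp3 shows how wide the mutant AT1 group was: it measured 16.9, 24.0 and 85.4 FPKM there, and 19.2, 20.7 and 36.4 in mutant AT2 libraries.

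Among 29 measured transcription factors of lung epithelium, 4 were higher in mutant AT1 cells, 6 were lower and 19 were not called, shares near or below those over all genes. Higher were Hopx, Klf4 (1.24, a Krüppel-like factor of barrier epithelia), Sox11 (0.77) and Tead1 (0.58, a DNA-binding partner of YAP and TAZ). Lower were the epithelial ETS factors Ehf (-1.34) and Elf5 (-1.02), Irx3 (-1.31), Sox9 (-0.83), a factor of lung tip progenitors, Cebpa (-0.61), a factor of AT2 maturation, and Grhl2 (-0.39). Etv5, an ETS factor needed for AT2 identity, measured 7.48, 11.7 and 30.2 FPKM in mutant AT1 and 21.9, 24.3 and 21.8 in mutant AT2 libraries. These overlapped (-0.58, adjusted p = 0.276), and in controls the difference was -3.34 (interaction 2.74, adjusted p = 0.0241). Id2, an inhibitor of basic helix-loop-helix factors, differed by 0.01 in mutants and -2.28 in controls (interaction 2.23, adjusted p = 0.000698). Foxa2, a forkhead factor of endoderm, differed by 0.26 in mutants and 0.19 in controls and passed the test in neither.

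Basement membrane genes kept the AT1 side. Of 20 measured, 17 were higher in mutant AT1 cells and 0 lower (median 1.33), where 19.9% and 24.9% of all genes were. In controls 19 were higher and 0 lower (median 2.40). The interaction was negative for 10 of 20. Col4a3, the alpha 3 chain of collagen IV that AT1 cells make, measured 27.0, 68.8 and 80.4 FPKM in mutant AT1 libraries and 12.1, 10.3 and 6.49 in mutant AT2 libraries, without overlap (2.45 ± 0.41, adjusted p = 0.00212). Control AT1 libraries held 479, 272 and 322 FPKM and control AT2 libraries 40.7, 21.4 and 29.5. The largest differences of the list were Nid1 (3.60), the basement membrane linker nidogen 1, and Lama4 (3.06), a laminin chain that endothelial and mesenchymal cells also make, so they stand beside the marker levels of those cells given below. Of 15 integrin and hemidesmosome genes, 12 were higher and 1 lower (median 0.75).

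Hippo pathway and YAP/TAZ target genes were higher in part. In mutant AT1 cells 7 of 19 were higher and 1 lower (median 0.56), where 19.9% and 24.9% of all genes were. In controls 14 were higher and 1 lower (median 1.18). The interaction was negative for 6 of 19. Ctgf, a matricellular protein and YAP/TAZ target, measured 204, 766 and 628 FPKM in mutant AT1 libraries and 94.1, 102 and 52.5 in mutant AT2 libraries, with library A again the lowest of the mutant AT1 libraries (2.56 ± 0.52, adjusted p = 0.00541). Axl, a receptor tyrosine kinase, differed by 2.13. Without 1 library the count of genes higher ran from 6 to 11.

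Proliferation genes ran the other way. All 25 measured cell cycle genes were lower in mutant AT1 than in mutant AT2 cells, where 24.9% of all genes were. Their median was -1.25, and all 25 were also called without any 1 library. In controls 13 of 25 were lower and none higher (median -0.97), a count that ran from 4 to 16 without 1 library and was 3 with equal totals. The interaction passed the test for 1 of 25 genes (negative, Mcm2, a subunit of the replicative helicase), so a difference from the controls was not shown for the others. The list summed to 626 to 659 FPKM in mutant AT1 and 1482 to 1771 in mutant AT2 libraries, against 116 to 275 in control AT1 and 368 to 512 in control AT2 libraries. Mki67, the antigen of cycling cells, measured 23.0, 18.8 and 27.1 FPKM in mutant AT1 libraries and 81.8, 71.8 and 78.1 in mutant AT2 libraries. The groups were far apart and tight (-1.68 ± 0.13, adjusted p = 7.55e-05).

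Of 24 listed gastric genes, 6 were measured in mutants, of which 1 was higher and 2 were lower in mutant AT1 cells (median -0.38), counts too small to set against the 19.9% and 24.9% over all genes. Without 1 library, 1 to 2 were higher and 0 to 3 lower, with medians from -0.78 to 0.26. Cym (chromosome 3: 107211293 to 107221732, minus strand), which encodes the stomach protease chymosin, measured 847, 1393 and 1998 FPKM in mutant AT1 libraries and 233, 164 and 160.0 in mutant AT2 libraries, against at most 6.42 in any control library. It was higher in every mutant AT1 library (2.89 ± 0.37, adjusted p = 0.000626). Tff2, the trefoil peptide of gastric mucus, measured 55.7, 17.5 and 21.9 FPKM in mutant AT1 and 48.0, 109.9 and 104 in mutant AT2 libraries. Its groups overlapped through mutant AT1 library A, and it was called lower (-1.47, adjusted p = 0.028). Of 9 measured intestinal genes, 1 was higher (Cldn15) and 3 were lower (Guca2a, Slc5a1 and Cldn2). These counts are again too small to set against the 19.9% and 24.9% over all genes. None of these 4 genes averaged above 5 FPKM in a mutant group. Cldn15 lost its call, or was no longer measured, without any 1 mutant library, and the count of lower genes ran from 1 without a mutant AT2 library to 5 without mutant AT1 library A.

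Genes of the alveolar transitional state, the state between AT2 and AT1 cells described in injured lung, were higher in mutant AT1 cells for 14 of 19 and lower for 1 (median 0.75), where 19.9% and 24.9% of all genes were, against 7 and 5 in controls (median 0.17). The interaction was positive for 3 of 19 and negative for 3 (median 0.11), or 7 and 4 with AT1 letters as pairs, so a general change of these genes relative to controls was not shown. Sprr1a (chromosome 3: 92483952 to 92485895, minus strand), a cornified envelope protein of squamous epithelium, measured 1843, 780.4 and 996 FPKM in mutant AT1 libraries and 177, 301 and 163 in mutant AT2 libraries, against 2.77, 0.568 and 0.844 in control AT1 and 7.18, 6.28 and 5.66 in control AT2 libraries. It was far above all controls in both mutants, and higher in mutant AT1 (2.47 ± 0.28, adjusted p = 0.00035; control difference -1.86; interaction 4.33). Krt19, a simple epithelial keratin, differed by 1.37, and 7 of 9 measured keratin genes were higher with none lower. Clu, the secreted chaperone clusterin, did not separate the mutants: it measured 6959.8, 1438 and 1948 FPKM in mutant AT1 and 2605, 3064 and 2142 in mutant AT2 libraries (-0.02, adjusted p = 0.968), against 32.6 to 216 in the 6 control libraries.

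MHC class II genes, which AT2 cells are known to express, kept the AT2 side. All 6 measured were lower in mutant AT1 cells (median -2.19), and all 6 in controls (median -3.39), where 24.9% and 25.8% of all genes were. H2-Aa, the alpha chain of the I-A molecule, measured 8.54, 17.1 and 34.7 FPKM in mutant AT1 and 85.6, 121 and 126 in mutant AT2 libraries, with no overlap (-2.52 ± 0.42, adjusted p = 0.00223). Control AT1 libraries held 5.82, 51.3 and 72.8 FPKM and control AT2 libraries 877, 637 and 840.4. Leukocytes also express these genes, and the leukocyte list summed to 184 to 271 FPKM in mutant AT1 and 81.7 to 188 in mutant AT2 libraries, higher on the AT1 side with a small overlap.

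Of 24 measured Wnt pathway genes, 11 were higher in mutant AT1 cells and 4 lower (median 0.33), where 19.9% and 24.9% of all genes were. In controls 9 of 25 were higher and 3 lower (median 0.46). The count of 11 was 6 to 8 without 1 library, with 6 without mutant AT1 library B and 7 without mutant AT2 library B or C. Wnt10a, a Wnt ligand, measured 27.4, 7.61 and 11.6 FPKM in mutant AT1 and 0.492, 0.445 and 0.361 in mutant AT2 libraries, against at most 0.194 in any control library. It was thus detected well above the controls in mutant AT1 cells, with an AT1 minus AT2 difference of 3.11 ± 0.37 (limma adjusted p = 0.000448). Its interaction was 2.97 (limma adjusted p = 0.00258). Wnt10a passed the filter on low values through the mutant AT1 libraries alone, so these p-values are a description. Lgr5, a receptor for R-spondins and a marker of gut stem cells, went the other way, with 1.67, 1.61 and 1.47 FPKM in mutant AT1 and 5.68, 4.90 and 6.26 in mutant AT2 libraries (-1.55; interaction -1.61). Sp5, a Wnt target gene, was also lower in mutant AT1 cells (-1.80). Dlk1, an imprinted Notch ligand relative, was lower in mutant AT1 cells (-2.99) while 10 of 12 fetal and imprinted growth genes were higher, among them Peg3 (2.43) and Igf2 (2.25), and these 3 genes differed alike in controls (-3.29, 3.14 and 2.58).

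Cholesterol genes separated the mutants and not clearly the controls. Of 20 measured genes of cholesterol synthesis and uptake, 13 were higher in mutant AT1 cells and 0 lower (median 0.57). Over all genes 19.9% were higher and 24.9% lower. Without 1 library, 11 to 14 of the cholesterol genes were higher. In controls 3 were higher and 5 lower (median -0.11), or 8 and 1 with equal totals. The interaction was positive for 6 of 20. Idi1, the isopentenyl diphosphate isomerase, measured 16.0, 19.6 and 24.2 FPKM in mutant AT1 libraries and 3.88, 3.70 and 3.34 in mutant AT2 libraries, all mutant AT1 libraries lying above all mutant AT2 libraries (2.13 ± 0.15, adjusted p = 3.99e-05). Insig1, which holds back the processing of the sterol factor SREBP, measured 16.3, 20.4 and 19.5 FPKM in mutant AT1 and 9.30, 9.49 and 8.22 in mutant AT2 libraries, against 33.8, 21.9 and 28.1 in control AT1 and 48.8, 68 and 57.0 in control AT2 libraries, so the order turned round (1.03 in mutants; interaction 2.04).

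Genes of the immediate early and heat shock responses were higher in mutant AT1 cells for 12 of 15 and lower for none (median 1.16). In controls 5 of 15 were higher and none lower (median 0.40). Over all genes 19.9% were higher in mutants and 23.4% in controls. The interaction passed for 0 of the 15 in limma, with 4 positive and 0 negative at an unadjusted p under 0.05. Without 1 library, 7 to 12 were higher in mutants, and 3 to 7 in controls (control medians 0.15 to 0.67). Control AT2 library B stood apart, with a list sum of 9579 FPKM against 3442 and 3905 in control AT2 libraries A and C. Dusp1, a phosphatase of MAP kinases, measured 166, 472 and 395 FPKM in mutant AT1 and 77.3, 88.9 and 53.5 in mutant AT2 libraries, with no overlap (2.13 ± 0.41, adjusted p = 0.00414). Oxidative phosphorylation genes, 15 of 23 lower in control AT1 cells, had 5 lower and 1 higher in mutants (median -0.13). These 5 are near the 24.9% lower over all genes, and 2 to 4 were lower without 1 library, with 2 without any one of the mutant AT2 libraries or mutant AT1 library B and 3 without mutant AT1 library C. The interaction was positive for 8 of 23, or 4 without mutant AT2 library C and 5 without control AT2 library B.

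**Figure D4:**
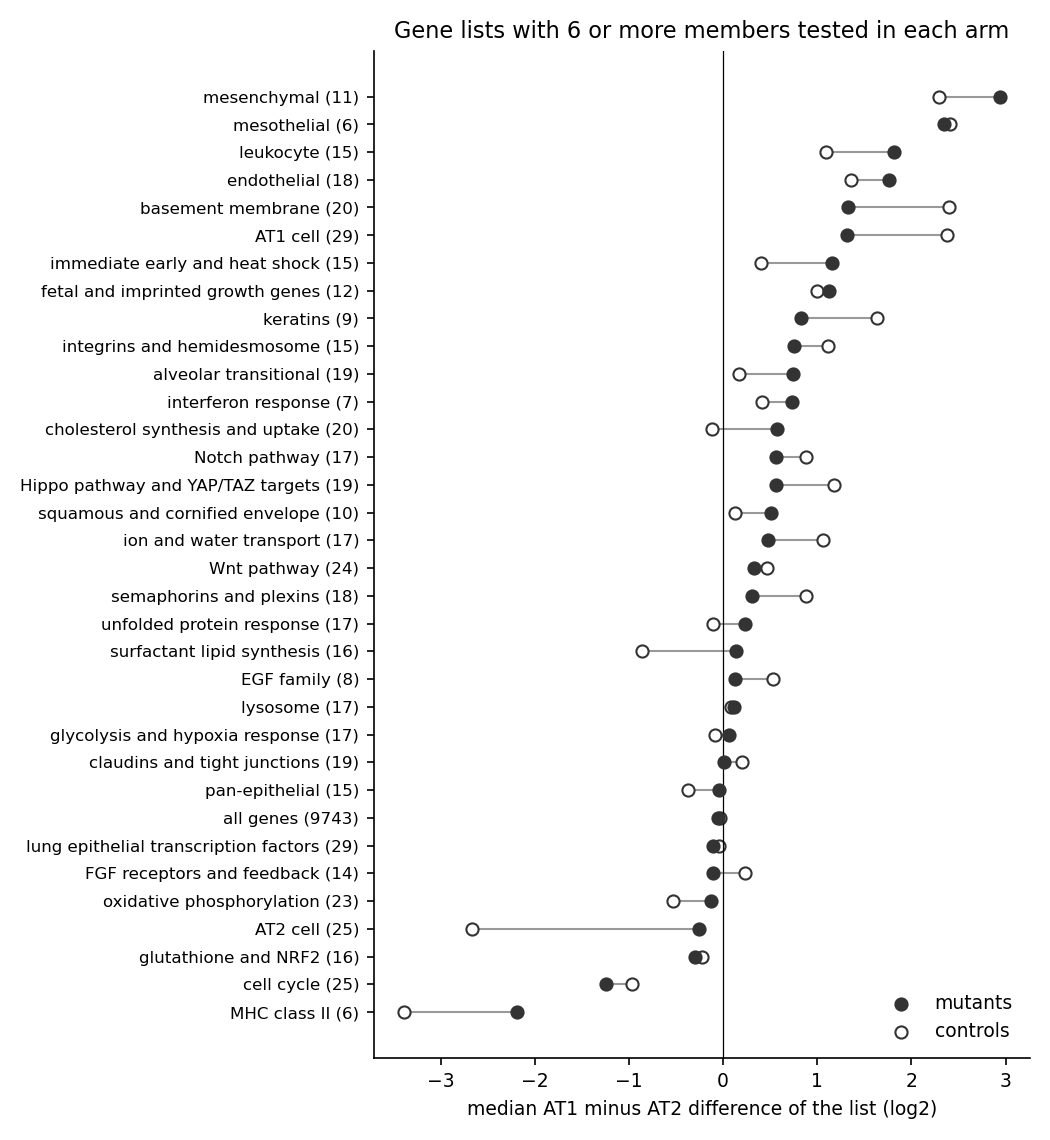
Median log2 difference AT1 minus AT2 of each gene list in mutants (filled) and controls (open), for lists with at least 6 genes tested in each arm. Mesenchymal, mesothelial, leukocyte and endothelial lists have the highest medians in mutants (2.94, 2.34, 1.82 and 1.76), MHC class II (-2.19) and cell cycle (-1.25) the lowest, and the AT2 list is at -0.26 in mutants, against -2.67 in controls.

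The plot of list medians is led by markers of cells that neither population should contain. Of 14 joined mesenchymal genes, 11 passed the filter on low values in mutants, and these 11 were all higher in mutant AT1 cells (median 2.94). So were 6 of 6 mesothelial (2.34), 16 of 18 endothelial (1.76) and 11 of 15 leukocyte genes (1.82), with 0 lower in each. Over all genes 19.9% were higher. Without 1 library, 10 to 11 mesenchymal, 2 to 5 mesothelial, 16 to 17 endothelial and 6 to 11 leukocyte genes were higher. A gene can pass this filter through the mutant AT1 libraries alone, so these counts leave out members low in both. In controls 14 of 14 mesenchymal, 6 of 6 mesothelial, 14 of 18 endothelial and 7 of 17 leukocyte genes were higher. Without 1 library these control counts ran 8 to 14, 2 to 6, 9 to 16 and 2 to 11. The mesenchymal list summed to 2455 to 4118 FPKM in mutant AT1 libraries and 155 to 208 in mutant AT2 libraries, against 3818 to 4663 in control AT1 and 311 to 633 in control AT2 libraries. The endothelial list summed to 337 to 400 FPKM in mutant AT1 and 90.3 to 136 in mutant AT2 libraries, against 598 to 1066 and 337 to 452 in control AT1 and control AT2 libraries. Mesothelial sums were 1330 to 2325 and 650 to 692 FPKM in mutant AT1 and mutant AT2 libraries, and they include Krt19, a keratin of alveolar epithelium as well. The list of genes that all epithelia share summed to 5060 to 7882 FPKM in mutant AT1 and 4610 to 4970 in mutant AT2 libraries, against 1602 to 2803 in control AT1 and 2314 to 3293 in control AT2 libraries. The part of the other cells in the AT1-higher genes was not tested.

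**Figure D5:**
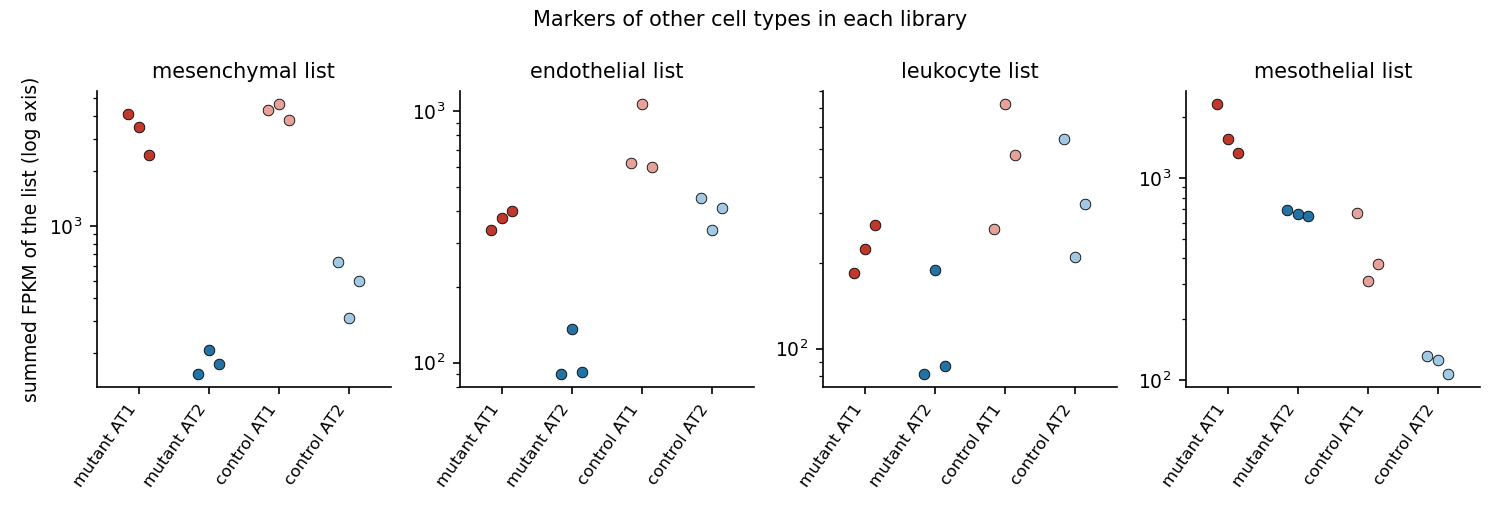
Summed FPKM (log axis) of the mesenchymal, endothelial, leukocyte and mesothelial lists in each of 12 libraries, grouped as mutant AT1, mutant AT2, control AT1 and control AT2. Mesenchymal sums are 2455 FPKM or more in all AT1 libraries and 633 or less in all AT2 libraries, in mutants and controls alike.

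The plot of other-cell sums shows that the mesenchymal gap is a property of both arms. Leukocyte sums overlapped in both arms, in controls at 263 to 721 FPKM in AT1 and 210 to 541 in AT2 libraries. Mesenchymal genes also lead the list of largest differences. Col1a1 (chromosome 11: 94936224 to 94953042, plus strand), a chain of fibrillar collagen I, measured 422, 392 and 281 FPKM in mutant AT1 libraries and 8.64, 10.7 and 7.41 in mutant AT2 libraries, with tight and distant groups (5.22 ± 0.16, adjusted p = 1.48e-06; control difference 4.43). Whole lung held 184.7 FPKM in the mutant and 332.9 in the control. Among the 12 largest differences were also the collagen genes Col1a2, Col3a1, Col5a1 and Col6a3, the elastin gene Eln (4.64), the matrix protease Mmp2 (4.48) and the mesenchymal cadherin Cdh11 (4.16), each called in controls too. Upk1b, a uroplakin of bladder and mesothelium, measured 46.4, 64.8 and 58.9 FPKM in mutant AT1 and 0.943, 0.654 and 0.740 in mutant AT2 libraries (4.86 ± 0.16). It had a positive interaction (1.95, limma adjusted p = 0.00421). In the mutants it passed the filter on low values through the AT1 libraries alone.

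Several of the largest differences are genes almost without signal in all libraries of 1 table. Lypla1, an acyl-protein thioesterase, measured 36.2, 21.5 and 35.4 FPKM in mutant AT1 libraries and 0, 0.390 and 0.220 in mutant AT2 libraries, and the 3 control AT2 libraries held at most 0.643. In the other direction, Ankrd7 (-6.36), Npm3-ps1 (-5.26), Nhlrc4 (-4.92), Cd46 (-4.86), Mef2b (-4.42), Gm128 (-3.65) and Cnbd2 (-4.22) stayed under 1 FPKM in all 6 AT1 libraries. Ankrd7 measured 78.9, 103 and 77.4 FPKM in mutant AT2 libraries and at most 0.129 in any mutant AT1 library. The tables were built by different steps, and a part of their annotation in these genes was not tested. Of the genes called lower in mutant AT1 cells, 78 were under 1 FPKM in all 6 AT1 libraries (28 of the 78 at 4-fold or more), and 154 of those called higher were under 1 FPKM in all 6 AT2 libraries (29 of the 215 at 4-fold or more).

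Chil4, a chitinase-like protein, was also among the 12 largest differences on the AT2 side. In the mutants it passed the filter on low values through the AT2 libraries alone, so its p-value is a description. It measured 0.0438, 0 and 0 FPKM in mutant AT1 and 15.7, 74.4 and 38.5 in mutant AT2 libraries, against at most 2.33 in the controls, so this difference is one of the mutants (-5.14 ± 0.46, adjusted p = 0.000125; interaction -3.78). Chia1, the acidic chitinase, measured 5.25, 0.497 and 5.69 FPKM in mutant AT1 and 56.9, 286 and 45.9 in mutant AT2 libraries (-4.58). Retnla, a resistin-like secreted protein, differed by -5.13 in mutants and -6.25 in controls, with values from 7.56 to 121 FPKM in mutant AT1 libraries and from 292 to 3345 in mutant AT2 libraries.

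Of the 215 genes at least 4-fold higher in mutant AT1 cells, 200 were called the same way in controls, 11 were not called, 3 were not measured and 1 was called the opposite way (Sprr1a). Of the 78 at least 4-fold lower, 69 were called the same way, 1 was not called and 8 were not measured. A large difference between the mutants was thus in most cases called the same way between the controls, at any size. At 4-fold or more in both comparisons were 134 of the 215 and 57 of the 78.

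The 8 largest positive interactions were Slc34a2, Krt23, Sprr1a, Bex1, Rbpjl, Nupr1, S100g and Lamp3, all higher in control AT2 than in control AT1 cells. Krt23, a type I keratin, measured 88.7, 49.2 and 44.8 FPKM in mutant AT1 libraries and 41.4, 51.4 and 38.8 in mutant AT2 libraries, against 1.58, 4.50 and 9.47 in control AT1 and 61.7, 88.1 and 70.1 in control AT2 libraries. The mutant groups overlapped, and mutant AT1 libraries B and C lay below all control AT2 libraries (mutant difference 0.47, adjusted p = 0.118; interaction 4.34, adjusted p = 0.00106). Nupr1, a small stress-induced nuclear protein, measured 123, 93.7 and 89.0 FPKM in mutant AT1 and 33.7, 36.8 and 36.1 in mutant AT2 libraries, against 48.2, 40.1 and 49.1 in control AT1 and 199, 344 and 302 in control AT2 libraries, so its order turned round (1.54 ± 0.11, adjusted p = 4.92e-05; interaction 3.98). Bex1 stayed on the AT2 side with a smaller gap (-1.61 in mutants, -5.88 in controls). Among the largest negative interactions after Chil4 were Cp, Abi3bp, Fras1, Sphk1, Tgm2 and Nbl1, from -2.87 to -2.10.

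Promoters were read for CTCAAG, the core of sites known for NKX2-1, on either strand, in the 300 bases from 250 before to 50 after the start of each gene in RefSeq (GRCm38.p6). The motif was in 16.1% of the 7804 tested genes with a promoter entry and in 15.9% of all promoters in the table. It was in 18.6% of the AT2-higher control-defined genes and in 14.9% of the AT1-higher ones. Of the AT2-higher ones it was in 19.8% of 86 genes with a positive interaction and in 17.9% of 84 whose interaction was not called. Krt23 and Slc34a2 have the 2 largest positive interactions, and their promoters are shown because 1 holds the motif and the other does not. Krt23 lies on the minus strand at chr11:99493071-99493370 and Slc34a2 on the plus strand at chr5:53049103-53049402. Both read 5′ to 3′ along the gene, with CTCAAG in capitals.
Krt23: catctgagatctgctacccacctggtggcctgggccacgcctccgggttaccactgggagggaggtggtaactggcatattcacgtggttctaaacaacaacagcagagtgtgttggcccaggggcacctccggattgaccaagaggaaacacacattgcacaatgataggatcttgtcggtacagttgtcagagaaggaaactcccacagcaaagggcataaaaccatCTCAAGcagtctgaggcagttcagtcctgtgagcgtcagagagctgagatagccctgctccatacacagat
Slc34a2: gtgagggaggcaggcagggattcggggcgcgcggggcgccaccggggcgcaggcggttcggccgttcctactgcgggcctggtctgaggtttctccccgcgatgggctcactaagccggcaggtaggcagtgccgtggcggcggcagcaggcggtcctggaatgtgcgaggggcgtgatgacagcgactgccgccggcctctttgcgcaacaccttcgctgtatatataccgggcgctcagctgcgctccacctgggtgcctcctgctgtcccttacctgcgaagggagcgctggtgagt
A match describes the letters in this window only and is not a site.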

How the data were processed

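RNA-seq values of 6 mutant and 6 control mouse alveolar libraries were used. Poly(A) RNA was selected and sequenced as 76-nucleotide read pairs, per the labels' protocols. The submitters' processing notes name mm10, Cufflinks 2.2.1, Bowtie2 2.2.3 and TopHat2 2.0.14, with Cuffdiff for AT1 cells and lung and Cuffnorm for AT2 cells. Annotation and strand setting were not given in the sources used here, so overlapping and antisense genes and near-identical copies are uncertain. The values deposited by the authors are FPKM, normalized separately in a table of 23793 AT1 and lung loci and a table of 32609 AT2 loci, with no read counts.

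From these, genes were joined by unique name (18935 shared names, of which 896 small RNA loci were left out). Spreadsheet conversion had turned 26 names of the AT1 table and 23 of the AT2 table into dates, and 159 and 66 names occurred more than once. These, and 4381 AT1 and 11952 AT2 names without a partner, among them Epcam and Vegfa, were not analysed here. Values were set to log2(FPKM + 1), quantile-normalized over the libraries of a comparison, and tested with limma 3.58.1 in R 4.3.3 (mean-dependent prior, two-sided, Benjamini-Hochberg over all genes). A gene needed 1 FPKM in 3 or more libraries (mutants, controls, or all 12 for the interaction). A gene can thus pass through the 1 group where it is high, and p-values of such genes are a description. Fold changes on this scale understate those of low genes. All adjusted p are from limma and all differences are log2, AT1 minus AT2, or mutant minus control of that. The fit was tested on simulated data.

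Named were Nkx2-1 and the 12 largest called differences in each direction, with at least 5 FPKM in the higher group and no overlap of the mutant groups. Also named were the 8 largest interactions in each direction, with at least 5 FPKM in at least 1 group and overlap allowed. Up to 4 called members per list, and all AT1, AT2 and transcription factor members, completed the rule. Genes outside this rule (Clu, Insig1, Lgr5, Mcm2, Xist, Ddx3y) were chosen after their values were seen. Members and lists were chosen with earlier results of these data known. Lists overlap in part. One gene that this rule named is not reported here. Letters A to C were not stated to mark a shared day or litter. Deviations from group means of mutant and control AT1 libraries of the same letter correlated at 0.311, 0.406 and 0.490 across genes. Letters were therefore treated as pairs there as an added alternative. Other letters correlated at -0.261 to -0.112, which adds no support, since the deviations in a group sum to 0. Alternatives covered pseudocount, filter, scaling, ranks, replicate letters and each library left out. GENCODE gene coordinates on GRCm38 (mm10) are given. Tables were handled with pandas 2.3.3 and NumPy 2.4.6 in Python 3.11.15, and plots drawn with matplotlib 3.10.9.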

Additional observations from a re-analysis of the deposited data

Results flagged for a closer look

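The AT1 minus AT2 difference differed between mutants and controls, by a test of that difference itself over 12 libraries (limma, adjusted p below 0.05), for 606 genes in the positive and 421 genes in the negative direction, or 977 and 841 with the letters of AT1 libraries as pairs. Among those named, it was positive for Slc34a2 (4.48), Krt23 (4.34), Sprr1a (4.33), Bex1 (4.19), Rbpjl (3.99), Nupr1 (3.98), S100g (3.90) and Lamp3 (3.63). In all 8, control AT2 libraries lay above control AT1 libraries. Rbpjl, a transcription factor related to the Notch effector RBPJ, measured 2.02, 4.17 and 10.3 FPKM in mutant AT1 and 1.22, 1.5 and 1.87 in mutant AT2 libraries, against 5.16, 17.8 and 18.3 in control AT1 and 89.0, 118 and 121 in control AT2 libraries. The difference was negative for Chil4 (-3.78), Cp (-2.87), Abi3bp (-2.28), Fras1 (-2.26), Sphk1 (-2.14), Tgm2 (-2.11) and Nbl1 (-2.10). Tgm2, a protein cross-linking enzyme, measured 82.1, 74.4 and 82.4 FPKM in mutant AT1 and 73.5, 110.1 and 98.8 in mutant AT2 libraries, against 76.3, 86.9 and 109 in control AT1 and 25.3, 18.6 and 25.9 in control AT2 libraries. Groups of 3 libraries were not tested for single outlying values.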

How the results depend on the processing

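Counts of genes called kept within 1.5 times their main value under the other pseudocount, filters and scalings, except as given here. Calls between the mutants numbered 1388 at 2-fold or more and 2906 to 3892 (lower side 1562 to 2133) without 1 library, of which 2906 and 1562 lack mutant AT2 library C. With equal totals, controls gave 4520 higher and 1075 lower genes and the interaction 3128 in all, 307 positive and 2821 negative. Without 1 library the interaction gave 493 to 1176 in all, 320 to 691 positive and 173 to 548 negative. Control-defined AT1-higher genes called the same way in mutants numbered 448 with a pseudocount of 0.1 and 511 with equal totals, and AT2-higher genes 282 and 90, since these settings change how many genes the controls choose. The mutant median of the AT1-higher genes was 2.28 with a pseudocount of 0.1, 2.04 without rescaling, 2.11 by median ratio, 2.30 by ranks and 1.72 to 2.09 without 1 library. That of the AT2-higher genes was -1.55 with a pseudocount of 0.1, -1.65 by ranks and -1.32 to -0.97 without 1 library. Of 3232 alternative values of named genes between the mutants, 3030 kept direction and side of the threshold, 168 lost the call, 33 gained it and 1 changed sign: Chac1, an enzyme that breaks down glutathione, at -0.65 in the main fit and -0.87 to 0.00303 without 1 library, the last lacking mutant AT1 library C (the cause was not tested). Of 5146 interaction values, 4867 kept both, 170 lost the call and 109 gained it.

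The replicate block, with letters A to C as pairs, gave 1740 higher and 2020 lower genes between the mutants, 619 positive and 437 negative interactions, and 6 higher and 9 lower AT2 genes. Deviations of same-letter mutant AT1 and mutant AT2 libraries correlated at -0.10, -0.11 and -0.11, so between cell types these samples share only a letter. With a replicate block within AT1 libraries, where letters paired mutants with controls, the interaction gave 1818 genes, 977 positive and 841 negative. Of 225 named genes 16 gained an interaction call and none lost one. A block within each cell type gave 1374, 784 and 590. Same-letter AT2 libraries correlated at -0.000494, -0.0854 and 0.259, and both C libraries are P9 while A and B are P8. FPKM give no depth, so no limit for genes near 0 could be set. Counts of list members under other settings, and the count of 4133 mutant calls without genes under 1 FPKM in all libraries of 1 table, were chosen after seeing the data.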
